A study of Mus musculus with 12 samples.

Results

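The genes described here encode the subunits of the mitochondrial oxidative phosphorylation system: 86 rows of nuclear genes and the 13 protein-coding genes of the mitochondrial genome, 99 of the 22880 features in the count table. They were chosen by symbol: names starting with Ndufa, Ndufb, Ndufc, Ndufs or Ndufv (but not Ndufaf), Uqcr, Cox4i to Cox8 or Atp5, the genes Sdha to Sdhd and Cyc1, and protein-coding names starting with mt-, with pseudogenes left out. By complex these are 43 subunits of complex I, 4 of complex II, 10 of complex III, 23 of complex IV (with Ndufa4 and Ndufa4l2, which take complex I names) and 19 of complex V. RNA was sequenced from 12 libraries of 4T1, a mouse mammary tumour cell line that spreads to the lungs, in 4 groups of 3. MYBup cells were transfected with pcDNA3-mMyb to overexpress the transcription factor Myb and are labelled as having low lung metastatic activity. Mock cells were transfected with pcDNA3.1 and have normal activity. Lung3 cells were not transfected but were passaged through the lung 3 times and have high activity. Wt cells were neither transfected nor passaged and have normal activity. The labels do not say whether the transfected cells are pools or single clones, nor whether replicates are separate cultures, so the p-values measure only the spread between these libraries. The study asked which genes move in opposite directions in MYBup against mock and in lung3 against wt.

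Complexes I to IV form the respiratory chain of the inner mitochondrial membrane. Complex I takes electrons from NADH and complex II takes them from succinate; ubiquinone carries them to complex III, cytochrome c carries them on to complex IV, and complex IV reduces oxygen to water. Complexes I, III and IV pump protons across the membrane, and complex V, the ATP synthase, lets them flow back and makes ATP. Complex II is built only of nuclear-encoded subunits, while the other complexes each combine nuclear subunits with some made inside the mitochondrion from mitochondrial DNA. The mitochondrial subunits lie in the catalytic or proton-conducting cores, and most nuclear subunits are accessory parts that surround them.

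Total counts ran between 8912989 and 24745660 per library. Nuclear subunit genes took between 0.998% and 1.24% of a library's counts and mitochondrial ones between 0.644% and 1.05%. Myb had 39.3, 42.9 and 39.8 CPM in MYBup libraries, against 5.17, 4.49 and 6.80 CPM in mock libraries, and all MYBup libraries lay far above mock. In cells without the plasmid it had 3.13, 2.77 and 2.22 CPM in lung3 libraries, against 4.27, 4.95 and 5.75 CPM in wt libraries, with no overlap. The 12 mammary epithelial markers checked were all detected and summed to between 2881 and 2956 CPM in MYBup, 3295 and 3596 CPM in mock, 2762 and 3189.9 CPM in lung3 and 2854 and 3297 CPM in wt, lower in MYBup than in mock without overlap. Of the leukocyte markers Cd3e, Adgre1 and Tyrobp had 0 counts, and the list summed to between 8.43 and 10.2 CPM in MYBup, 11.6 and 16.5 CPM in mock, 19.6 and 22.3 CPM in lung3 and 11.6 and 14.1 CPM in wt. These sums were lower in MYBup than in mock and higher in lung3 than in wt, both without overlap. Of the 8 lung epithelial markers the surfactant genes Sftpc, Sftpb, Sftpa1 and Sftpd and also Hopx had 0 counts; the list, nearly all of it the water channel gene Aqp5, summed to between 11.6 and 12.9 CPM in MYBup, 7.65 and 9.12 CPM in mock, 2.31 and 5.82 CPM in lung3 and 5.0 and 5.81 CPM in wt, higher in MYBup than in mock without overlap. Endothelial markers summed to between 0.977 and 1.33 CPM in MYBup, 1.63 and 1.90 CPM in mock, 0.115 and 0.901 CPM in lung3 and 0.240 and 0.578 CPM in wt. For fibroblast markers the sums were 38.8 to 48.7 CPM in MYBup, 36.8 to 49.0 CPM in mock, 16.0 to 22.0 CPM in lung3 and 21.8 to 30.3 CPM in wt. Both lists stood higher in MYBup and in mock than in wt without overlap. Muscle and heart markers summed to between 69.4 and 111 CPM over all groups. Kdr, Cldn5, Lum, Myh6 and Myh7 had 0 counts. The part of these marker levels in the results was not tested. Levels are given throughout as CPM, the count scaled to a common library size after TMM normalisation of the library totals.

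The 13 mitochondrial protein genes fell into a measured and an almost empty group. Over all 12 libraries mt-Co3 (cytochrome oxidase subunit 3) had 0 counts, mt-Co2 and mt-Atp8 had 1 count each, mt-Atp6 had 3, mt-Nd4l had 4 and mt-Nd3 had 7. The other members, mt-Nd1, mt-Nd2, mt-Nd4, mt-Nd5, mt-Nd6, mt-Cytb and mt-Co1, had between 2234 and 525450.0 counts. The mouse nuclear genome carries a long copy of mitochondrial DNA on chromosome 1, where GENCODE annotates several copies as separate genes. Of mt-Co2 (chrM:7013-7696), all 50-base stretches also occur in the annotated copy Gm28661 (chr1:24614885-24615565, minus strand). The first 60 bases of both transcripts are shown because they are the same letter for letter, so that a read of that length could be placed in either.
mt-Co2: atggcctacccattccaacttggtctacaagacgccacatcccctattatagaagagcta
Gm28661: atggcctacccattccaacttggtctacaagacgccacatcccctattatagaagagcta
Of mt-Nd5, which was counted, 7.61% of 50-base stretches occur in another annotated gene. Its bases 706 to 765 are shown beside the stretch of its copy Gm4076 on chromosome 13 that aligns to them, with the differing base in capitals. Over the whole alignment mt-Nd5 and this copy differ at 93 of 965 bases.
mt-Nd5: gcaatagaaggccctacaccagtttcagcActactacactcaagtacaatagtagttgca
Gm4076: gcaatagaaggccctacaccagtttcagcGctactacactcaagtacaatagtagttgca
The near-empty genes mt-Atp6, mt-Co2, mt-Co3, mt-Nd3 and mt-Nd4l shared 98.0% or more of their 50-base stretches with annotated copies, and the aligned stretch of mt-Nd3 differed from its copy Gm28438 at 1 of 345 bases. By this measure mt-Atp8 differed: it shared 0% with any annotated transcript and had 1 count. It lies at chrM:7766-7969, between mt-Co2 and mt-Atp6, and overlaps the start of mt-Atp6. The annotated copies of these neighbours, Gm28661 and Gm10925 (chr1:24613974-24614651, minus strand), also lie close together on chromosome 1. Sequence outside annotated genes was not examined, so whether mt-Atp8 has an unannotated copy there is not known. Mt-Nd4 shared 62.2% and mt-Co1 shared 51.1% of their stretches, and both were counted. The copies are not among the rows analysed here, and no source used here says how reads with several placements were counted. The part of this sharing in the near-0 counts was not tested, the 6 genes are not read as levels, and complex V has no measured mitochondrial subunit.

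**Figure D1:**
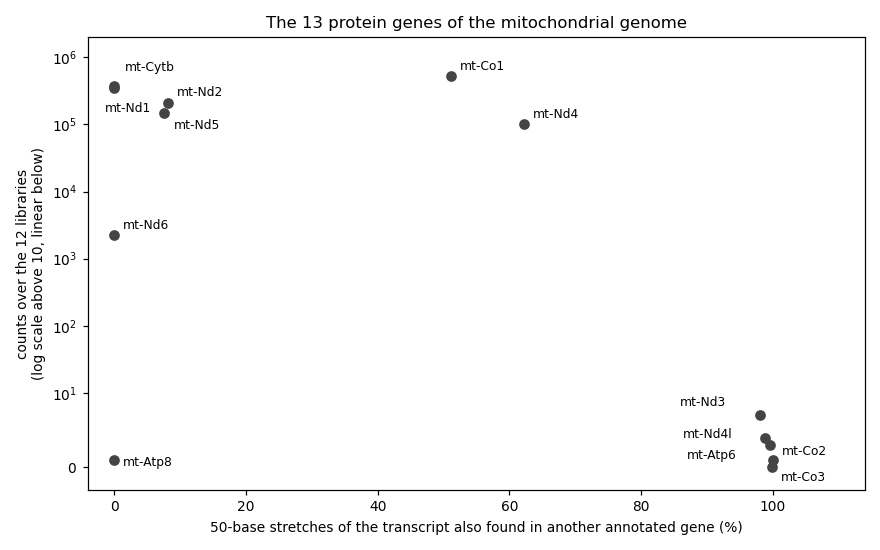
Counts summed over the 12 libraries (vertical axis, log scale above 10 and linear below) against the share of 50-base transcript stretches that also occur in another annotated gene (horizontal axis, %), 1 point per mitochondrial protein gene. The 5 genes at 98.0% or more had between 0 and 7 counts, and mt-Atp8, at 0%, had 1 count. Sequence outside annotated genes was not examined.

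Of the nuclear members 78 of 86 passed the filter on low counts and 8 did not. Those 8 are isoforms known from other tissues or conditions: Cox4i2, Cox6a2, Cox6b2, Cox7a1, Cox7b2, Cox8b, Cox8c and Ndufa4l2, with between 0 and 11 counts each over the 12 libraries. With 3 counts as the limit of detection, that limit was between 0.121 and 0.337 CPM per library. Their ubiquitous counterparts were all measured. Cox6b1 averaged 141 ± 29.3 in MYBup, 158 ± 25.5 in mock, 155 ± 10.8 in lung3 and 166 ± 24.2 in wt CPM (SD, n = 3), Cox7a2 152 ± 28.3 in MYBup, 143 ± 24.6 in mock, 133 ± 7.85 in lung3 and 145 ± 13.6 in wt CPM, and Ndufa4 278 ± 40.7 in MYBup, 258 ± 42.8 in mock, 230.1 ± 8.92 in lung3 and 249 ± 29.8 in wt CPM. The c-ring of the ATP synthase is encoded by Atp5g1, Atp5g2 and Atp5g3, which give the same mature protein. Per kilobase of transcript the mean level over all libraries was 423 CPM for Atp5g3, 89.5 CPM for Atp5g2 and 29.0 CPM for Atp5g1.

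Per kilobase the highest level in each complex was 402 CPM for Ndufb9 in complex I nuclear genes, 183 CPM for Sdhd (a membrane anchor) in complex II, 339 CPM for Uqcrh (the hinge protein) in complex III nuclear genes, 552 CPM for Ndufa4 in complex IV nuclear genes and 1014 CPM for Atp5b (the catalytic beta subunit) in complex V. The lowest were 4.14 CPM for Ndufb4, 68.0 CPM for Sdhc, 70.6 CPM for Cyc1 (cytochrome c1), 88.7 CPM for Cox7a2l and 3.05 CPM for Atp5s. The median nuclear subunit stood at 64 CPM per kilobase in complex I, 97.4 in complex II, 135 in complex III, 226 in complex IV and 206 in complex V. Ndufb4 shared 18.3% of its 50-base stretches with other annotated genes, and the part of this in its low level was not tested. Of the mitochondrial genes, mt-Nd1 (1882 CPM), mt-Co1 (1706 CPM) and mt-Cytb (1621 CPM) stood higher per kilobase than any nuclear subunit. Mt-Nd6, the only one encoded on the light strand, stood at 22.0 CPM. Mt-Nd2, mt-Nd4 and mt-Nd5 are not ranked here.

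Each complex was summed over its tested genes, and the groups of the 4 comparisons made here (MYBup and mock, lung3 and wt, mock and wt, MYBup and wt) differed in no sum by more than 0.26 on the log2 scale. The ratio of that size belonged to the 12 nuclear subunits of complex IV. They summed to 2246, 2048 and 2163 CPM in MYBup libraries, against 1642, 2034 and 1726 CPM in mock libraries, a log2 ratio of 0.26, and the groups did not overlap. The margin was narrow, between MYBup replicate 2 (2048 CPM) and mock replicate 2 (2034 CPM). Without Cox4i1, a member called higher in MYBup, the order of these libraries is reversed and the groups overlap. In lung3 the 12 nuclear subunits of complex IV summed to 1811, 1623 and 1699.9 CPM, against 2034, 1974 and 1807 CPM in wt libraries, a log2 ratio of -0.18. Lung3 replicate 1 lay above wt replicate 3, and each lung3 library lay below the wt library of its own number. The 36 nuclear subunits of complex I summed to 2429.8 ± 142 CPM in MYBup and 2215 ± 243 CPM in mock (SD, n = 3 each). Those of complex V, 17 genes, summed to 5219.7 ± 338 CPM in MYBup and 4777 ± 558 CPM in mock. Both log2 ratios were 0.13, and both MYBup means lay within the range of the mock libraries, of which replicate 2 stood above the others in every nuclear complex. Complex II summed to 691 ± 41.0 CPM in MYBup and 732 ± 75.1 CPM in mock, and the nuclear part of complex III to 1062 ± 80.9 CPM in MYBup and 1106 ± 119 CPM in mock. Between lung3 and wt the nuclear sums of complexes I, II, III and V differed by between -0.06 and -0.03 on the log2 scale, within the spread of either group. The ratios of complexes II and III changed sign with a library left out, so no direction is given for them.

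The mitochondrial RNAs varied more within groups than between them. All 7 together summed to 8788, 9593 and 7640.3 CPM in MYBup libraries, against 9415, 7761 and 8795 CPM in mock libraries, and to 6515, 8294 and 10685 CPM in lung3 libraries, against 7553, 9137 and 9153 CPM in wt libraries. The means were 8674, 8657, 8498 and 8614 CPM in MYBup, mock, lung3 and wt, so the groups were close while lung3 replicates 1 and 3 stood far apart. The 78 nuclear genes summed to 11555 ± 695 CPM in MYBup and 10631 ± 1186 CPM in mock, and to 10817 ± 593 CPM in lung3 and 11373 ± 728 CPM in wt. The ratio of the mitochondrial to the nuclear sum ranged between 0.669 and 0.877 in MYBup, 0.647 and 0.942 in mock, 0.567 and 1.01 in lung3 and 0.637 and 0.869 in wt. All groups overlap in this ratio, and the lung3 libraries alone cover the values of the other groups.

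**Figure D2:**
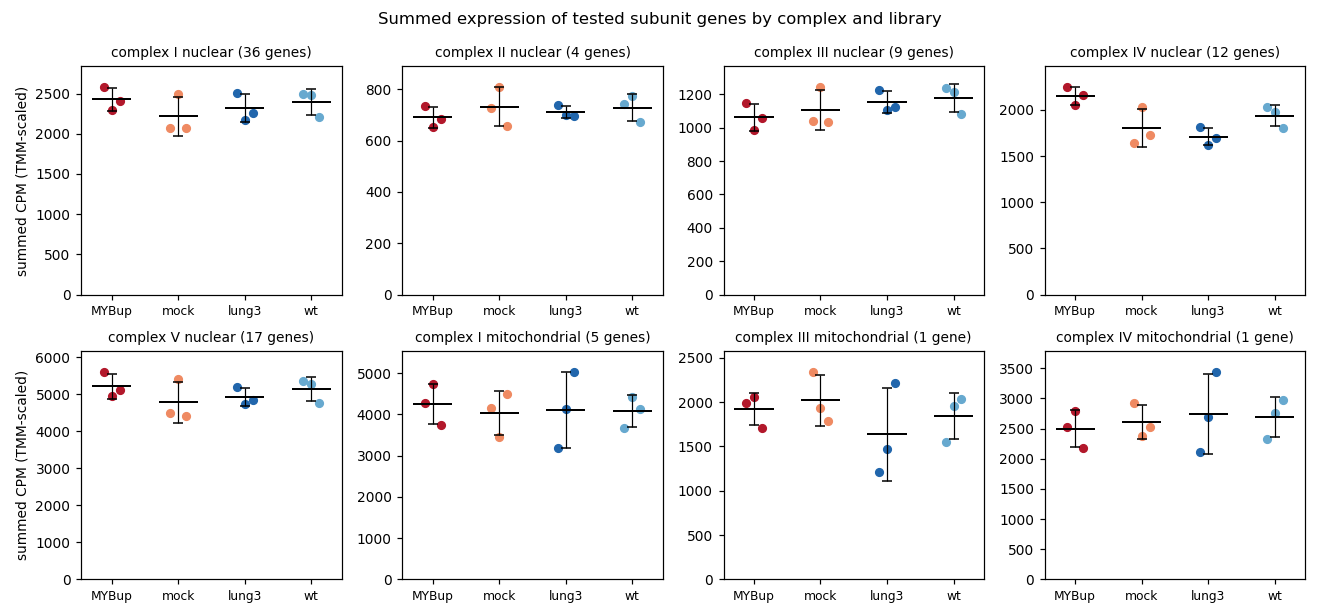
Summed CPM (TMM-scaled, linear axis from 0) of the tested genes of each complex, nuclear and mitochondrial apart, in each library of MYBup, mock, lung3 and wt; horizontal lines are means and bars SD, n = 3. The complex IV nuclear sums in MYBup lie above mock without overlap, by a narrow margin that is lost without Cox4i1. The mitochondrial panels show wide scatter within lung3.

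Of the 7 measured mitochondrial genes edgeR called 0 in each of the comparisons made here, with 0 at an unadjusted p under 0.05, and DESeq2 and limma voom called 0 as well. With offsets for GC content mt-Nd4 was called higher in MYBup than in wt, at 0.49 on the log2 scale (edgeR adjusted p = 0.0395). Mt-Nd1, a core membrane subunit of complex I, had 1928, 1956 and 1549 CPM in MYBup libraries, against 1783, 1641 and 2055 CPM in mock libraries, a log2 fold change of -0.012 ± 0.135 (SE). Mt-Co1, the catalytic subunit of complex IV, had 2114, 2687 and 3439 CPM in lung3 libraries, against 2326, 2753 and 2979 CPM in wt libraries, a log2 fold change of 0.032 ± 0.16. Both pairs of groups overlap widely. Mt-Cytb, the haem-bearing cytochrome b of complex III, had 1214, 1475 and 2217 CPM in lung3 libraries, against 1544, 1951 and 2033 CPM in wt libraries, -0.17 ± 0.186 on the log2 scale. For the complex I subunits mt-Nd2, mt-Nd4, mt-Nd5 and mt-Nd6 the log2 fold changes in MYBup against mock were 0.15, 0.16, 0.13 and 0.23, with SE between 0.156 and 0.259. In lung3 against wt the same genes had -0.10, -0.094, -0.0006 and 0.065. These errors bound the differences only loosely, and equal levels are not shown. Mt-Nd6 overlaps mt-Nd5 by 14 bases on the opposite strand, and no source used here says whether counting took strand into account.

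In MYBup against mock, 12 nuclear subunit genes rose and 1 fell (edgeR, adjusted p under 0.05 over 11291 genes). That is 14.1% and 1.18% of the 85 tested members, beside 14.3% higher and 12.6% lower over all genes tested. The share that rose is thus near the background. The share that fell is below it, a difference for which no test was made. Of complex I, 7 of 41 tested members rose and 0 fell (0 lower also at an unadjusted p under 0.05, by DESeq2 and by limma voom). Of complex IV, 2 of 13 rose, and of complex V, 3 of 17 rose, with 0 lower in both by all 3 tools. Of complex II, 0 of 4 changed by any of the tools, with 0 at an unadjusted p under 0.05 in edgeR and limma voom and 1 lower in DESeq2. Of complex III, 1 of 10 fell and 0 rose. The median log2 fold change of the 85 members was 0.10, against 0.0015 over all genes tested, and 58 of the 85 were positive. All 85 changed by less than 1 on the log2 scale. The count of 13 called members was 8 without MYBup replicate 2, 7 without MYBup replicate 3, 6 without mock replicate 1 and 21 without mock replicate 2. Shares of all genes called in these fits are not given, so the shifts are not read as particular to the members.

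**Figure D3:**
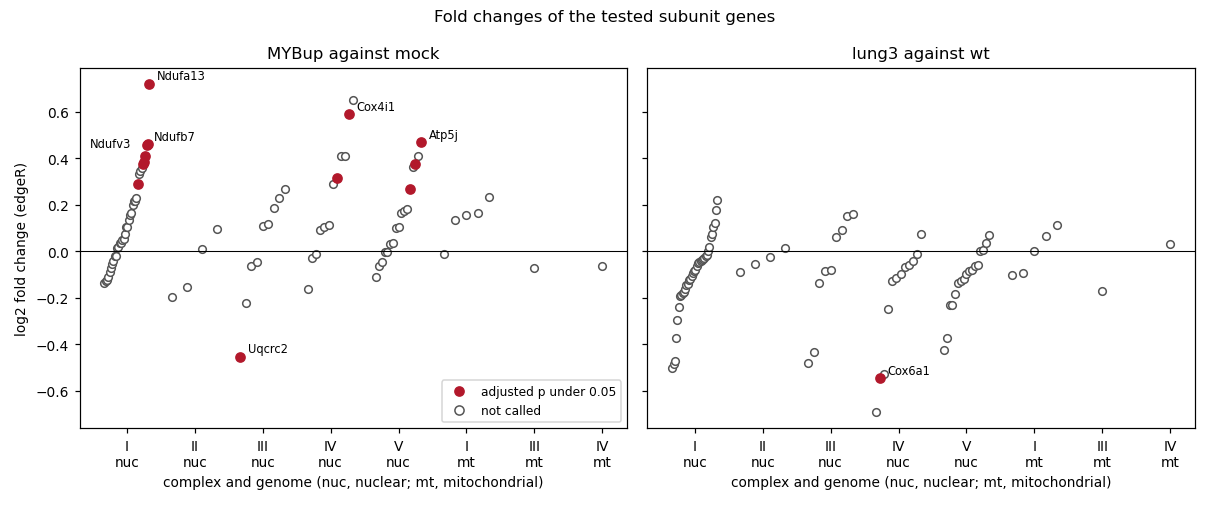
Log2 fold changes of the 85 tested members in MYBup against mock (left) and lung3 against wt (right), by complex and genome, sorted within each; filled points have an edgeR adjusted p under 0.05. On the left 12 filled points lie above 0 and 1, Uqcrc2, below it; on the right only Cox6a1 is filled.

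In complex I the member that rose most was Ndufa13 (ENSMUSG00000036199, chr8:69894180-69902558), an accessory subunit also known as GRIM-19. It had 79.2, 71.8 and 75.6 CPM in MYBup libraries, against 43.1, 45.3 and 49.4 CPM in mock libraries (log2 fold change 0.72 ± 0.114 (SE), edgeR adjusted p = 0.000548). All MYBup libraries lay above all mock libraries. In wt cells it had 81.5, 72.2 and 64.8 CPM, close to MYBup, and mock was the group that stood low. Ndufb7, an accessory subunit of the membrane arm that faces the intermembrane space, had 61.9, 55.7 and 61.5 CPM in MYBup libraries, against 43.0, 42.7 and 44.8 CPM in mock libraries (log2 fold change 0.46 ± 0.156 (SE), edgeR adjusted p = 0.0447). Ndufb5 had 103, 93.8 and 98.1 CPM in MYBup libraries, against 67.3, 85 and 70.3 CPM in mock libraries (log2 fold change 0.41 ± 0.0971 (SE), edgeR adjusted p = 0.00725), and Ndufb3 had 55.4, 46.2 and 49.1 CPM in MYBup libraries, against 36.6, 45.3 and 33.7 CPM in mock libraries (log2 fold change 0.38 ± 0.113 (SE), edgeR adjusted p = 0.0229). Both are membrane-arm accessory subunits, and in both the mock library closest to MYBup was replicate 2. Ndufv3, an accessory subunit of the NADH-oxidising module, had 54.0, 38.8 and 42.1 CPM in MYBup libraries, against 32.8, 37.5 and 27.6 CPM in mock libraries (log2 fold change 0.46 ± 0.16 (SE), edgeR adjusted p = 0.0478). Ndufc1 had 34.2, 32.5 and 32.6 CPM in MYBup libraries, against 23.6, 27.7 and 25.6 CPM in mock libraries (log2 fold change 0.37 ± 0.116 (SE), edgeR adjusted p = 0.0295). Ndufa12 had 57.1, 64.2 and 61.0 CPM in MYBup libraries, against 43.7, 52.4 and 53.3 CPM in mock libraries (log2 fold change 0.29 ± 0.0868 (SE), edgeR adjusted p = 0.0251). None of these 7 genes overlapped between the groups, which their selection by adjusted p favours. The share of all genes without overlap is not given here. The Ndufa13 exons share 375 bases with Tssk6 and those of Ndufb5 share 616 with Mrpl47 on the opposite strand, so their counts are uncertain to that extent.

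In complex III, Uqcrc2 (chr7:120635176-120659524), a core protein of the matrix side, fell. It had 149.6, 115 and 123 CPM in MYBup libraries, against 174, 198 and 159 CPM in mock libraries (log2 fold change -0.46 ± 0.105 (SE), edgeR adjusted p = 0.00633), and every MYBup library lay below every mock library. Against wt it was lower too, with 178, 188 and 175 CPM in wt (log2 fold change -0.48 ± 0.105 (SE), edgeR adjusted p = 0.00312). In complex IV, Cox4i1 (chr8:120668222-120674207), the ubiquitous isoform of the regulatory subunit IV, had 476, 383 and 426 CPM in MYBup libraries, against 273, 333 and 249 CPM in mock libraries (log2 fold change 0.59 ± 0.123 (SE), edgeR adjusted p = 0.00344), with no overlap. Cox7a2l, also known as SCAF1 and needed to join complexes III and IV into supercomplexes in mice, had 132, 113 and 108 CPM in MYBup libraries, against 89.0, 112 and 82.3 CPM in mock libraries (log2 fold change 0.32 ± 0.11 (SE), edgeR adjusted p = 0.0475). Here mock replicate 2 lay above MYBup replicate 3, so the groups overlapped. In complex V, Atp5j (coupling factor 6 of the peripheral stalk, chr16:84827866-84835625) had 153, 132 and 132 CPM in MYBup libraries, against 90.8, 111 and 99.0 CPM in mock libraries (log2 fold change 0.47 ± 0.0852 (SE), edgeR adjusted p = 0.00141). Atp5f1, subunit b of the same stalk, had 407, 363 and 387 CPM in MYBup libraries, against 272, 338 and 284 CPM in mock libraries (log2 fold change 0.37 ± 0.0836 (SE), edgeR adjusted p = 0.00522). Both stalk genes were higher in every MYBup library. Atp5c1, the gamma subunit of the rotating shaft, had 549.7, 471 and 489 CPM in MYBup libraries, against 388, 478 and 389 CPM in mock libraries (log2 fold change 0.27 ± 0.0932 (SE), edgeR adjusted p = 0.0485), with mock replicate 2 inside the MYBup range. On the opposite strand Uqcrc2 shares 504 exonic bases with Pdzd9, Cox4i1 shares 154 with Emc8, Atp5j shares 397 with Gabpa and Atp5f1 shares 337 with Wdr77, so these counts too are uncertain.

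**Figure D4:**
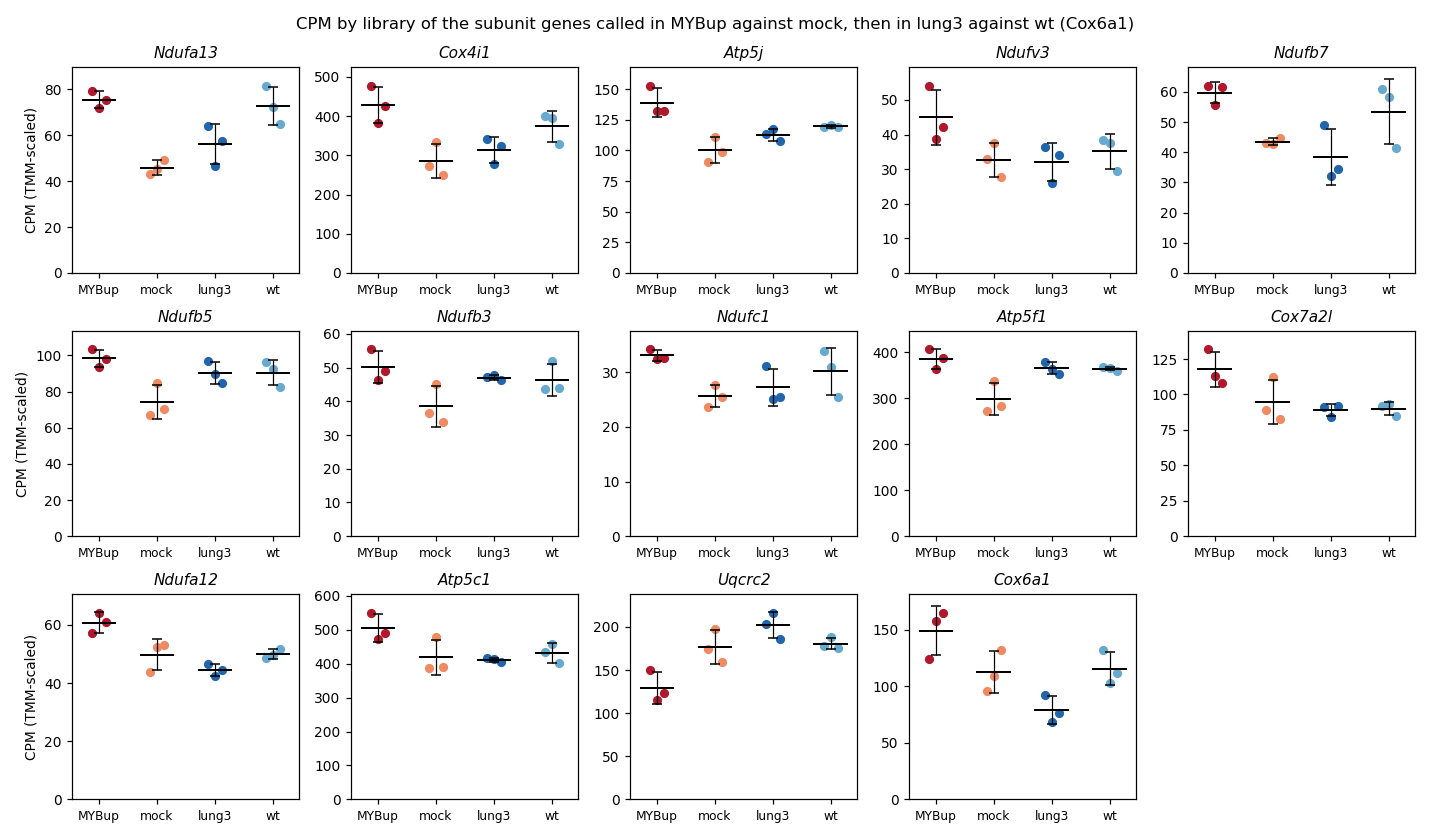
CPM (TMM-scaled, linear axes from 0) in each library of the 13 members called in MYBup against mock, ordered by fold change, followed by Cox6a1, the member called in lung3 against wt; lines are means and bars SD, n = 3. In 10 of the 12 that rose all MYBup points lie above all mock points, which selection by adjusted p favours. For several of the 12, such as Ndufa13 and Cox4i1, wt points lie nearer to MYBup than to mock.

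Calls for Ndufa13 and Cox4i1 held under each of the 21 alternative settings tried for this comparison. Those for Atp5c1, Cox7a2l and Ndufv3 were lost in 14, 12 and 10 of them, with edgeR adjusted p up to 0.238, 0.177 and 0.185. Ndufb7 was lost in 8, Ndufb3 and Ndufc1 in 6 each and Ndufa12 in 5, with adjusted p up to 0.132, most of these with 1 library left out. Ndufb5, Uqcrc2, Atp5f1 and Atp5j were each lost in 1, the replicate block. DESeq2 called these 12 genes as higher and added Cox6a1 and Atp5d, beside 14.8% of all genes; limma voom called them and added Cox6a1, beside 14.7%. The promoter of Ndufb3 is shown because it holds letters of the DNA element read by MYB, the protein the MYBup cells overexpress, and 3 members that rose have such letters: Ndufb3, Ndufb7 and Ndufv3. The sequence is RefSeq's for the 250 bases before the start (GRCm38.p6, chr1:58586147-58586396, plus strand), with the MYB letters in capitals.
Ndufb3: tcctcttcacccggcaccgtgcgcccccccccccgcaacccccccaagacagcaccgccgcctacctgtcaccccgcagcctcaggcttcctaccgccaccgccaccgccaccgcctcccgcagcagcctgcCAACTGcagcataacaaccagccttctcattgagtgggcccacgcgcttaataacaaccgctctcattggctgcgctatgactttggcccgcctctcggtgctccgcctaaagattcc
The letters searched, on both strands, were CAACTG or CAACGG, and these with T as the first base. In windows of 250 bases before to 50 after the start they occur in 3 of the 10 members that rose and have a promoter entry, in 13 of 53 other tested members and in 31.1% of 27025 genes. The share among members that rose is therefore close to that of all genes, and a match marks letters, not binding. Over all 67 members with an entry, 20 or 29.9% hold the NRF1 letters GCGCANGCG, against 7.03% of all genes. NRF1 is a known activator of nuclear respiratory genes. The YY1 letters AAGATGGCG occur in 10.4% of members and 1.64% of genes, and the ETS letters CCGGAAGT, read by GABP, in 7.46% of members and 4.31% of genes. Among the 10 that rose, NRF1 letters occur in 1, YY1 letters in 2 and ETS letters in 0. No source used here measures binding of these factors.

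In lung3 against wt 1 of the 85 tested members, Cox6a1, fell, and 0 rose (edgeR). That is 1.18% lower, beside 2.44% lower and 2.91% higher over all genes tested. At an unadjusted p under 0.05, 9 members were lower and 0 higher; DESeq2 called 4 lower, beside 3.79% of all genes, limma voom called 1, beside 2.29%, and both called 0 higher. Cox6a1 (ENSMUSG00000041697, chr5:115345642-115348981) encodes the ubiquitous isoform of subunit VIa of complex IV. It had 92.3, 68.3 and 76.6 CPM in lung3 libraries, against 132, 103 and 112 CPM in wt libraries (log2 fold change -0.55 ± 0.147 (SE), edgeR adjusted p = 0.0474), with no overlap. Its call did not hold with the replicate block on 12 libraries, nor without lung3 replicate 2 or 3, any single wt replicate or MYBup replicate 2 or 3, with an adjusted p up to 0.209 in edgeR. With offsets for transcript GC content the change was -0.29 (edgeR adjusted p = 0.0566), and 0 members were called, beside 6.32% of all genes in either direction. Its promoter is shown because it holds the NRF1 letters, in capitals, at 2 places, of which the first matches on both strands (RefSeq, 250 bases before the start, GRCm38.p6, chr5:115348959-115349208, minus strand).
Cox6a1: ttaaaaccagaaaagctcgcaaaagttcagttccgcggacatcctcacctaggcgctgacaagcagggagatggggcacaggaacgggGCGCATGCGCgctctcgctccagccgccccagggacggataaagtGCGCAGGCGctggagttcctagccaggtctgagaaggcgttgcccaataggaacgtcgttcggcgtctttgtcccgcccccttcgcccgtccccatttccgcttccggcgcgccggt
The median log2 fold change over the 85 members was -0.086, against 0.001 over all genes, and 66 of the 85 were negative. By complex the medians were -0.08 in complex I, -0.04 in complex II, -0.08 in complex III, -0.10 in complex IV and -0.10 in complex V.

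Lung3 and wt libraries of the same replicate number deviated together, and a fit of these 6 libraries with the replicate number as a block called 11 members lower and 0 higher, 12.9% of the members, beside 9.24% lower and 8.67% higher over all genes. The labels state no pairing, and with the block on all 12 libraries no member was called. A blocked fit of 6 libraries leaves few residual degrees of freedom. The 11 members called lower in it were spread over complexes I, III, IV and V: 4 of 41, 2 of 10, 4 of 13 and 1 of 17. In complex IV, Cox8a had 102, 67.9 and 78.2 CPM in lung3 libraries, against 155, 98.9 and 149 CPM in wt libraries; with the block its log2 fold change was -0.69 (edgeR adjusted p = 1.44e-05). Cox8a is the ubiquitous isoform of the smallest subunit, and each lung3 library lay below the wt library of its number although the groups overlapped. Cox5b, a zinc-binding subunit on the matrix side, had 77.4, 53.8 and 70.5 CPM in lung3 libraries, against 104, 86.2 and 102 CPM in wt libraries, and with the block -0.54 (edgeR adjusted p = 7.35e-05), with no overlap. Cox6a1 and Cox4i1 had -0.55 (edgeR adjusted p = 2.45e-05) and -0.25 (edgeR adjusted p = 0.0418). In complex V, Atp5d, the delta subunit of the ATP synthase, had 126, 82.4 and 109 CPM in lung3 libraries, against 161, 129 and 138 CPM in wt libraries, and with the block -0.44 (edgeR adjusted p = 0.000531). In complex III, Uqcr11 and Uqcrq, both small accessory subunits, had -0.49 (edgeR adjusted p = 0.00289) and -0.47 (edgeR adjusted p = 0.0039). In complex I, Ndufs7, a core subunit that carries the last iron-sulfur cluster before ubiquinone, had 30.9, 18.6 and 27.4 CPM in lung3 libraries, against 43.3, 32.5 and 34.4 CPM in wt libraries, and with the block -0.52 (edgeR adjusted p = 0.00122). The accessory subunits Ndufa13, Ndufb2 and Ndufb7 had -0.37 (edgeR adjusted p = 0.00523), -0.51 (edgeR adjusted p = 0.00643) and -0.47 (edgeR adjusted p = 0.0041). In all 11 genes lung3 replicate 2, the shallowest library with 8912989 counts, had the lowest value of the 6 libraries. Without the pair of replicate 2 the blocked fit called 7 members lower, all among the 11, and 2 higher, beside 5.66% of all genes lower. Without the pair of replicate 1 it called 10 lower, also among the 11, beside 4.77%, and without that of replicate 3 it called 26 lower and 2 higher, the 11 included, beside 13.2%. Without the block edgeR called 3 members on the same 6 libraries, beside 5.85% of all genes.

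GC content moved with this comparison. Over 11257 tested genes the Spearman correlation between log2 fold change in lung3 against wt and transcript GC content was -0.236, and over the 78 nuclear members it was -0.241; genes of a library are not independent replicates and these are descriptions. The 11 genes lower with the block had a median GC content of 58.6%, against 49.5% for the other 67. With GC offsets and the block together, 13 members were lower and 2 higher, beside 7.78% of all genes in each direction. Of the 11 genes 9 stayed called; Ndufa13 (-0.14, edgeR adjusted p = 0.175) and Cox4i1 (-0.22, edgeR adjusted p = 0.0612) did not. Atp5e, Atp5g3, Ndufb6 and Ndufs3 were added as lower, and Ndufb9 and Cyc1 were called higher at 0.23 and 0.37. The offsets moved Cox6a1 to -0.30, Atp5d to -0.26 and Uqcr11 to -0.31, and left Cox5b at -0.53. In MYBup against mock the correlation was 0.091 over all genes and 0.21 over nuclear members, and with GC offsets 14 were higher, the 12 above among them, and 2 lower, beside 16.3% higher and 14.3% lower over all genes.

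**Figure D5:**
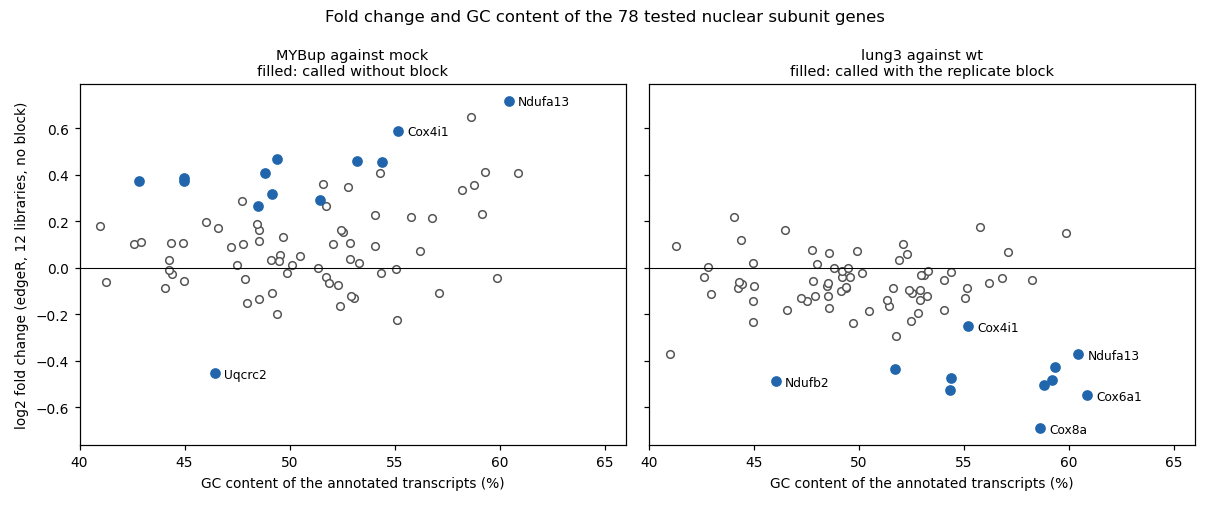
Log2 fold change (edgeR fit of 12 libraries without a block) against the GC content of the annotated transcripts (%), for the 78 tested nuclear members in MYBup against mock (left) and lung3 against wt (right). Filled points are the 13 called members on the left and, on the right, the 11 members called with the replicate block; on the right most filled points lie above 54% GC, with Ndufb2 and Uqcrq below that.

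Mock and wt, the groups that served as controls, differed from each other. In mock against wt 1 member rose and 10 fell (edgeR), 1.18% and 11.8%, beside 18.0% and 17.9% over all genes. Ndufs1, the largest core subunit of complex I, had 117, 124 and 120.0 CPM in mock libraries, against 157, 166 and 154 CPM in wt libraries (log2 fold change -0.40 ± 0.0661 (SE), edgeR adjusted p = 0.000518), with no overlap. Ndufa13 had 43.1, 45.3 and 49.4 CPM in mock libraries, against 81.5, 72.2 and 64.8 CPM in wt libraries (log2 fold change -0.67 ± 0.113 (SE), edgeR adjusted p = 0.000644). Cyc1 had 83.3, 104 and 84.3 CPM in mock libraries, against 133, 124 and 99.5 CPM in wt libraries (log2 fold change -0.39 ± 0.125 (SE), edgeR adjusted p = 0.0259). The others lower in mock were Ndufs7 (-0.47), Cox4i1 (-0.39), Ndufb10 (-0.37), Ndufb9 (-0.31), Atp5f1 (-0.29), Ndufb5 (-0.29) and Atp5j (-0.25), with Ndufa1 higher (0.29). The count of 11 was 3 without mock replicate 1, 4 without wt replicate 1 and 6 without wt replicate 2, with no share over all genes given for these fits.

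In MYBup against wt 6 members rose and 5 fell, 7.06% and 5.88%, beside 19.4% and 18.7% over all genes. Complex II had a member in each direction. Sdhb, its iron-sulfur subunit, had 163, 151 and 154 CPM in MYBup libraries, against 125, 128 and 119 CPM in wt libraries (log2 fold change 0.33 ± 0.0921 (SE), edgeR adjusted p = 0.0125). Sdha, its flavoprotein, had 202, 185 and 185 CPM in MYBup libraries, against 244, 243 and 219 CPM in wt libraries (log2 fold change -0.30 ± 0.0739 (SE), edgeR adjusted p = 0.00649). Neither pair of groups overlapped. The others that rose were Cox7a2l (0.39), Ndufs8 (0.33), Ndufb11 (0.32), Ndufa1 (0.31) and Ndufa12 (0.28), and those that fell were Atp5g2 (-0.49), Uqcrc2 (-0.48), Cyc1 (-0.44) and Ndufs1 (-0.30). Of the 12 members that rose against mock, Ndufa12 and Cox7a2l rose against wt as well. The other members of that list stood between 0.053 for Ndufa13 and 0.35 for Ndufv3, not called. These comparisons share libraries, so the values are given side by side and not as separate evidence. With GC offsets 17 members were called, beside 40.1% of all genes in either direction. The count of 11 was 7 without MYBup replicate 3 and 20 without mock replicate 2, again with no share over all genes given.

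The study's question was approached through the difference of effects, MYBup against mock minus lung3 against wt, which can differ from 0 without a change in both. In 15 members it passed the threshold, 14 higher and 1 lower, or 16.5% and 1.18% of the 85, beside 10.4% and 9.53% over all genes. In 14 of the 15 the effects had opposite signs, which choosing members by the difference favours, and in Atp5f1 both were positive. The share with opposite signs among all genes called in the difference is not given here. By edgeR without the block 0 of the 15 were called in both comparisons. By complex, 6 of 41 members of complex I, 4 of 13 of complex IV, 3 of 17 of complex V and 1 of 10 of complex III were higher, with 1 of 10 of complex III lower and 0 of 4 of complex II called. The complex IV members were Cox8a (1.34, edgeR adjusted p = 0.0295), Cox6a1 (0.96, edgeR adjusted p = 0.00622), Cox5b (0.93, edgeR adjusted p = 0.0156) and Cox4i1 (0.84, edgeR adjusted p = 0.00501). Cox8a had 116, 208 and 226 CPM in MYBup libraries, against 86.2, 98.6 and 167 CPM in mock libraries, and in lung3 102, 67.9 and 78.2 CPM against 155, 98.9 and 149 CPM in wt. Neither effect of Cox8a alone was called, at 0.65 and -0.69 (edgeR adjusted p = 0.1 and 0.174), and both pairs of groups overlapped. In complex I the largest was Ndufa13 (1.09, edgeR adjusted p = 0.000563), followed by Ndufb7 (0.93, edgeR adjusted p = 0.0106) and Ndufs7 (0.86, edgeR adjusted p = 0.0252). Complex V gave Atp5d (0.84, edgeR adjusted p = 0.0136), Atp5j (0.55, edgeR adjusted p = 0.00663) and Atp5f1 (0.37, edgeR adjusted p = 0.0433). Uqcrc2 had the opposite sign, at -0.62 (edgeR adjusted p = 0.0112). The members higher in MYBup than mock and those lower in lung3 than wt with the block shared Ndufa13, Ndufb7 and Cox4i1, which is 25.0% of the 12 and 27.3% of the 11; over all genes 200 were shared, 12.4% of the 1615 and 19.5% of the 1024. The count of 15 was 9 without MYBup replicate 3, mock replicate 1 or wt replicate 1 each, and 26 without mock replicate 2. No share over all genes is given for these fits. With GC offsets 18 members passed, all 15 among them, beside 22.0% of all genes in either direction. Of 19 settings tried, the call was lost in 12 for Atp5f1, 9 each for Ndufb10 and Ndufc1, 7 for Cox8a, 4 each for Ndufs7 and Uqcr11 and 1 for Ndufa12.

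Genes that build or feed the chain were read from lists, beside the 14.3% higher and 12.6% lower of all genes in MYBup against mock. Of 48 assembly factors edgeR called 4, all higher, or 8.33%, with a median log2 fold change of 0.04. They were Sdhaf4, an assembly factor of complex II (11.8 CPM in MYBup and 7.5 CPM in mock, 0.65), Atpaf1, a chaperone of the ATP synthase head (0.50), Foxred1 of complex I (0.37) and Cox16 of complex IV (0.29). Of 25 genes for mitochondrial transcription, RNA handling and translation 1 rose, Lrpprc, which stabilises mitochondrial mRNAs (177 CPM in MYBup and 146 CPM in mock, 0.28), and 1 fell, the helicase Dhx30 (-0.24), which is 4.00% in each direction. Mock stood low in 2 of these genes: Foxred1 and Lrpprc were lower in mock than in wt (-0.59 and -0.40, both called) and not called in MYBup against wt (-0.21 and -0.12). Sdhaf4, Atpaf1 and Cox16 were higher in MYBup than in wt as well, at 0.88, 0.50 and 0.46. Tfam, the main packaging and transcription factor of mitochondrial DNA, averaged 70.8 ± 3.12 in MYBup, 71.4 ± 5.25 in mock, 65.7 ± 2.80 in lung3 and 66.3 ± 1.5 in wt CPM (SD, n = 3), with no call. Of 10 tested regulators of respiratory genes only Gabpb1, a subunit of GABP, was called in MYBup against mock. It was lower in MYBup (47.1 CPM in MYBup and 56.8 CPM in mock, -0.27). Gabpb1 was higher in mock than in wt (0.29) and stood at 0.016 in MYBup against wt. Ppargc1a, the PGC-1 alpha coactivator, had a mean of at most 0.038 CPM in any group. Against wt, the regulators Ppargc1b and Pprc1 were called lower in both MYBup and mock. Ppargc1b averaged 2.71, 1.94 and 5.45 CPM in MYBup, mock and wt, and Pprc1 108, 102 and 155 CPM. Of the 10 regulators 4 were lower in MYBup than in wt and 0 higher, and mock had 2 in each direction. Of the 25 genes from transcription to translation, 9 were lower in MYBup (36.0%) and 8 in mock (32.0%), with 0 higher. Over all genes 18.7% and 17.9% were lower. In lung3 against wt the assembly factor Taco1 (0.42) and the polymerase subunit Polg2 (0.65) rose, the only edgeR calls in these lists, beside 2.91% higher and 2.44% lower over all genes.

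Of 17 genes of pyruvate dehydrogenase and the citric acid cycle, 2 rose and 3 fell in MYBup against mock, 11.8% and 17.6%, beside 14.3% and 12.6% over all genes. Pdhb (94.9 CPM in MYBup and 68.3 CPM in mock, 0.47) and the succinyl-CoA ligase subunit Sucla2 (0.32) rose; both were lower in mock than in wt (-0.54 and -0.35, both called) and stood at -0.066 and -0.024 in MYBup against wt. Idh3a, the catalytic subunit of NAD-dependent isocitrate dehydrogenase (178 CPM in MYBup and 237 CPM in mock, -0.41), Suclg2 (-0.38) and Dlat (-0.32) fell. Of 18 genes of ubiquinone synthesis and other electron carriers Etfdh (0.39) and Coq5 (0.27) rose and Coq3 (-0.45) and Coq10b (-0.30) fell, 11.1% in each direction. Against wt, MYBup was higher in Etfdh (0.39) and not called in the other 3. Of 19 tested genes of glycolysis and its exits 7 rose and 2 fell, 36.8% and 10.5%, with a median of 0.22; no test was made of these shares against the background. Ldhb rose but was low, with 2.62 CPM in MYBup and 0.786 CPM in mock (1.75), and the phosphofructokinase Pfkp had 107 CPM in MYBup and 65.2 CPM in mock (0.72). Pdk3, a kinase that inhibits pyruvate dehydrogenase (51.6 CPM in MYBup and 104 CPM in mock, -1.02), and the hexokinase Hk2 (96.5 CPM in MYBup and 163 CPM in mock, -0.76) fell, and both were lower than in wt too (-0.44 and -0.41). Ldhb and Pfkp were lower in mock than in wt (-1.18 and -0.76) and not called in MYBup against wt (0.56 and -0.044). In lung3 against wt Etfdh (0.33) and Pfkp (0.32) rose, the only edgeR calls in these lists.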

How the data were processed

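The authors deposited raw counts of reads per gene in 1 table for the 12 libraries; no normalization was applied, and values over 4 digits are rounded to 4 significant digits. RNA came from RNeasy Plus Mini columns and libraries from the TruSeq RNA kit, per the labels' protocols. The submitters' processing notes name STAR, edgeR and GRCm38, with no version; the counting tool, the annotation and whether strand was used are given in no source used here. Ensembl IDs were matched to GENCODE M21 for symbols (22647 of 22880), coordinates (1-based), GC content and median coding-transcript length.

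Counts were fitted with edgeR 4.0.16 in R 4.3.3 (TMM, filterByExpr, quasi-likelihood test, 12 libraries, 1 term per group), with Benjamini-Hochberg adjustment over 11291 genes and a threshold of 0.05. Alternatives were RLE factors, mitochondrial rows left out of scaling, no filter, replicate blocks, the 6 libraries compared, DESeq2 1.42.0, limma voom 3.58.1 and each library left out. GC offsets (lowess, span 0.3) and the blocked fit with each pair left out were added after seeing the data. Deviations from group means correlated at 0.329, 0.294 and 0.309 between lung3 and wt libraries of the same number (-0.212 to -0.0930 otherwise), so that number was used as a block there, a pairing taken from the data and the labels' numbers. The pipeline was tested on simulated data. Members and lists were chosen with earlier results of these data known. Named are all members called in the main comparisons, the 13 mitochondrial genes, isoforms, extremes of level, untested members and up to 4 called genes per list; members called only with the block, in other comparisons or in the difference were named after their values were seen. At a total of 8912989 to 24745660 counts, limits of 3 counts cover counting error only. Promoter sequences are RefSeq's.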

Additional observations from a re-analysis of the deposited data

Results flagged for a closer look

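The effect of MYBup against mock differed from that of lung3 against wt, by the edgeR test of the difference itself, in 15 members, given here as log2 differences with the direction MYBup minus mock less lung3 minus wt. In complex I these were 1.09 for Ndufa13, 0.93 for Ndufb7, 0.86 for Ndufs7, 0.52 for Ndufc1, 0.45 for Ndufa12 and 0.41 for Ndufb10. Complex III gave 0.71 for Uqcr11 and -0.62 for Uqcrc2. Complex IV gave 1.34 for Cox8a, 0.96 for Cox6a1, 0.93 for Cox5b and 0.84 for Cox4i1, and complex V 0.84 for Atp5d, 0.55 for Atp5j and 0.37 for Atp5f1. With GC offsets the value for Cox6a1 was 0.59, and all 15 stayed past the threshold. Over the 19 settings tried, Atp5f1 lost its call in 12, Ndufb10 and Ndufc1 in 9 each, Cox8a in 7, Ndufs7 and Uqcr11 in 4 each and Ndufa12 in 1.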

How the results depend on the processing

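In MYBup against mock the 13 called members were 8 on the 6 libraries alone, 5 with the replicate block on them and 6 to 21 with a library left out. Same-number correlations of these groups were mixed (-0.191, -0.496 and 0.382), so the numbers gave no clear pairing. Why calls were lost under that block was not tested. In lung3 against wt the 1 call was 3 without the filter, 3 on 6 libraries, 4 with DESeq2, 0 with GC offsets, 0 with the replicate block on 12 libraries, 11 with the block on 6, 10, 9 and 28 with that block and pair 1, 2 or 3 left out, 15 with GC offsets and that block, and 0 to 4 with a library left out. In mock against wt the 11 calls were 7 on 6 libraries and 3 to 14 with a library left out. In MYBup against wt the 11 were 17 with GC offsets, 19 on 6 libraries, 19 with the replicate block on them and 7 to 20 with a library left out. The difference of effects, 15 calls, gave 9 to 26 with a library left out. Shares of all genes called are not given for fits with a library left out, without the filter or with the block on 12 libraries. For fits on 6 libraries they are given above only for lung3 against wt. None of these counts and ranges is read as particular to the members. The summed level of nuclear complex III, -0.06 in MYBup against mock, was 0.11 as the median of its members' fold changes, so no direction is given for it. The causes were not tested. The other 212 checks of counts and sums stayed within 1.5 times or 1 SD, but 15 of them gave a summed ratio the opposite sign; such changes touched 9 of the 16 ratios (the mitochondrial sums and nuclear complex III in both comparisons, and complex II in lung3 against wt), and no direction is given for these; of single members' values 4358 kept their side of the threshold, 113 gained and 186 lost it. The depth limits low members such as Ndufb4, Atp5l and Atp5s, and the near-empty mitochondrial genes cannot be judged.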
